A study of Mus musculus with 40 samples.

Results

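The genes described here are 49 mouse genes of the interferon response and of antigen presentation. The tables of the knockout genotypes and of the time course hold 55276 genes, and the table of the Pramel7 lines 55291. The 49 were chosen by gene symbol, with earlier results of these data known. They were measured by RNA-seq in 34 libraries of E14tg2a, a line of mouse embryonic stem cells grown with serum and LIF, the cytokine that keeps such cells undifferentiated. The genotype table holds 2 libraries each of wild type (WT), CtbpDKO (Ctbp1 and Ctbp2 both disrupted), DuxKO, Ctbp_DuxTKO (CtbpDKO and DuxKO combined), Dppa2KO and DKO_Dppa2 (CtbpDKO with Dppa2 knocked out). CtBP1 and CtBP2 are transcriptional corepressors, DUX is a transcription factor that activates genes of the 2-cell embryo, and DPPA2 is a chromatin factor that acts upstream of Dux. The Pramel7 table holds 4 WT libraries (replicates 3 to 6), 2 DuxKO libraries (replicates 3 and 4), and 2 libraries each of P7OE (Pramel7 overexpression), DuxKO_P7OE (the same in DuxKO cells) and P7KO (Pramel7 knockout); Pramel7 belongs to the Prame-like family and is expressed in the early embryo. CtbpDKO cells labelled Dox make up a time course with 2 libraries on each of days 0, 3, 9, 12 and 18, and the labels do not say what Dox did. Nothing in the labels says that replicates came from separate cultures or clones, so the p-values measure the spread between libraries, which may be technical.

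Interferons act through cell surface receptors and JAK kinases. Type I interferons act on target promoters through the interferon-stimulated response element (ISRE), which is bound by complexes that hold STAT2 and IRF9, and interferon gamma acts through the GAS element and induces the transcription factor IRF1. The targets include antiviral effectors, guanylate-binding proteins (GTPases directed at intracellular pathogens), sensors of foreign RNA and DNA, and the immunoproteasome, peptide transporter and class I heavy chains that put peptides on the cell surface. Embryonic stem cells are known to respond weakly to interferon and to carry low levels of class I molecules, while a set that includes the Ifitm genes is expressed in them without interferon.

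By role the list holds 22 antiviral effectors, 9 genes of antigen processing and presentation, 6 guanylate-binding proteins, 6 nucleic acid sensors and adaptors, 5 interferon regulatory and signalling factors, and the cytokine Csf1. Of these, 37 passed the filter on low counts in the genotype table, 40 in the Pramel7 table and 36 in the time course. The 8 members tested in no table were Gbp5, Ifit1, Ifit3, Ifit3b, Mx1, Mx2, Usp18 and Ifih1, none of which had more than 8 counts in any library. Of 21 interferon ligand genes none was tested, none had more than 6 counts in a library, and their summed level was at most 0.434 CPM (CPM, the usual depth-scaled count, on totals scaled by TMM). Reads of Gbp2 and Gbp2b, of Oas1a and the other Oas1 copies, of H2-K1, H2-D1 and other class I genes, and of the Ifitm genes may have been split between near-identical copies, so the values of single genes in these families are uncertain.

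Library totals ran from 10123058 to 36025046 counts. Ctbp1 was at 64.1 and 68.8 CPM in WT and at most 0.2 CPM in the lines labelled CtbpDKO, Ctbp_DuxTKO and DKO_Dppa2. Ctbp2 levels in these lines are not given here, so loss of Ctbp2 rests on the labels, and "without CtBP" below means so labelled. In the time course, CtbpDKO cells had Ctbp2 counts at day 0 (below). The Dux transcript Duxf3 was at 1.22 and 0.671 CPM in CtbpDKO and at 0 in Ctbp_DuxTKO, and it was too low in WT to check the other DuxKO labels. Dppa2 counts were lower, not absent, in Dppa2KO (33.3 and 29.1 CPM against 57.3 and 60.9 in WT), and DKO_Dppa2 is named after the samples' description, since its title names a different combination. Pramel7 reached 14 and 26.2 CPM in P7OE and 49.3 and 56.7 CPM in DuxKO_P7OE, and WT was too low (0.0757, 0.0804, 0.154 and 0.0910 CPM) to check P7KO. All 8 stem cell markers were detected in every group, at summed levels of 1891 to 3797 CPM. Markers of other cell types moved with the groups: the summed trophoblast markers were 41.4 to 44.2 CPM in WT, 57.2 to 62.1 in DuxKO, 27.6 to 31.6 in Dppa2KO, 162 to 175 in CtbpDKO, 166 to 167 in Ctbp_DuxTKO and 172 to 176 in DKO_Dppa2, all 7 of them detected in CtbpDKO, and 169 to 181 CPM at day 0 against 93.1 to 96.1 at day 3 and 216 to 220.0 at day 18. The 5 primitive endoderm markers, none at 0 in any group, summed in the genotype table to 25.0 to 29.3 CPM in WT, 6.25 to 6.50 in DuxKO, 31.1 to 34.3 in CtbpDKO, 117 to 122 in Ctbp_DuxTKO, 14 to 17.6 in Dppa2KO and 9.03 to 9.87 in DKO_Dppa2. In the Pramel7 table they summed to 6.43 to 8.48 CPM in WT, 7 to 7.89 in DuxKO, 4.91 to 7.54 in P7KO, 68.2 to 73.0 in P7OE and 62.1 to 67.7 in DuxKO_P7OE, and in the time course to 14.9 to 18 CPM at day 0 and 56.8 to 64.8 at day 18. Leukocyte markers summed in the genotype table to 78.8 to 79.2 CPM in WT, 48.5 to 49.6 in DuxKO and 65.8 to 82.1 in CtbpDKO. Of these 10 markers, 4, 5 and 3 were at 0 in these groups, and the highest single gene reached 2055, 1201 and 2511 counts. Fibroblast or feeder markers summed to 6.17 to 6.23 CPM in WT and 20.1 to 20.7 in CtbpDKO, with 4 and 3 of 9 at 0. Endothelial markers summed to 60.6 to 66.6 and 53.1 to 54.3 CPM, and their highest single gene reached 1654 and 1815 counts. The highest single trophoblast gene had 3901 counts in a CtbpDKO library, so in each of these lists 1 gene can carry much of a sum. In bulk RNA, fewer cells of a type and less RNA per cell cannot be told apart, and the part of these markers in the results below was not tested.

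Loss of CtBP gave changes in both directions, and some members were called in the same direction in 3 backgrounds that share no library. CtbpDKO against WT, Ctbp_DuxTKO against DuxKO, and DKO_Dppa2 against Dppa2KO each ask what CtBP loss does, with Dux and Dppa2 present, without Dux, and without Dppa2. Zbp1, a sensor of Z-form nucleic acids, Tapbp (tapasin), which holds class I molecules at the peptide transporter, and Bst2 (tetherin), which retains budding virus, rose in all 3. Ifitm1, Ifitm2 and Ifitm3, membrane proteins that block viral entry, Stat2, and Mavs, the mitochondrial adaptor of the RNA sensors, fell in all 3. These 3 and 5 of 37 tested members stand beside 5.72% of all tested genes higher and 3.87% lower in all 3 backgrounds, called in each where the adjusted p (Benjamini-Hochberg) of the quasi-likelihood test in edgeR was under 0.05. Zbp1 reached the minimum of the filter on low counts only in libraries without CtBP, so the filter fixed its direction and it adds nothing to the count of 3. Without Zbp1, the higher members are near the share of all genes. Among the 5 lower, the Ifitm genes are neighbours (below) whose reads may be split between copies, so they are not separate observations.

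In CtbpDKO against WT, 7 members rose and 5 fell (of all tested genes, 14.7% rose and 11.4% fell), and the median log2 fold change was 0.03 over the members and 0.0073 over all genes. In Ctbp_DuxTKO against DuxKO, 14 rose and 9 fell (21.4% and 19.6% of all genes), with medians of 0.51 and 0.041, the first being 0.35 when genes at or under 3 counts in every library of a group are set to their bound. In DKO_Dppa2 against Dppa2KO, 5 rose and 6 fell (15.2% and 15.2%), with medians of -0.06 and 0.013. By role, the antiviral effectors were divided in CtbpDKO, with 4 of 15 higher and 3 lower, and the antigen presentation genes had 2 of 8 higher (Tapbp and H2-D1) and none lower. None of the 3 tested guanylate-binding proteins (Gbp2, Gbp2b and Gbp4) passed the test there. Gbp4 was at 0.302 and 0.261 CPM in WT and 0.488 and 0.671 in CtbpDKO (1.03 ± 0.59 (SE) on the log2 scale), and Gbp2 had 2 and 11 counts in WT and 2 and 0 in CtbpDKO.

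Zbp1 had 0 and 2 counts in WT and 20 and 32 in CtbpDKO, 0 and 0 in DuxKO and 27 and 37 in Ctbp_DuxTKO, and 1 and 0 in Dppa2KO and 14 and 29 in DKO_Dppa2. It was thus at or near 0 in each library with CtBP and present in each library without it. Against a floor of 3 counts per library it was at least 7.58-fold, 12-fold and 11.5-fold higher. Sp110, which encodes a nuclear body protein, had no count in either WT library and 34 and 44 in CtbpDKO, at least 11.4-fold higher. In the other 2 lines without CtBP it reached only 2 and 5 counts (Ctbp_DuxTKO) and 6 and 2 counts (DKO_Dppa2) and did not pass the test against their parents. Zbp1, Sp110, Gbp4 and Oasl2 reached the minimum of the filter on low counts in fewer than 2 of the libraries with CtBP, so they were tested only because they were higher without it and are given as a description. The counts of higher members above include Zbp1 and Sp110 in CtbpDKO, and Zbp1 and Gbp4 in Ctbp_DuxTKO and DKO_Dppa2.

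Oas1a, an oligoadenylate synthetase that activates RNA decay on sensing double-stranded RNA, was at 1.81 and 1.5 CPM in WT and 3.57 and 3.77 in CtbpDKO. The groups did not overlap (log2 fold change 1.15, SE 0.33, adjusted p = 0.0191). It was at 0.680 and 0.199 CPM in DuxKO and 4.03 and 3.77 in Ctbp_DuxTKO, a wider gap (log2 fold change 3.14, SE 0.39, adjusted p = 3.2e-05) that starts from a lower level. In Dppa2KO (2.95 and 3.18 CPM) and DKO_Dppa2 (5.11 and 3.26 CPM) the difference did not pass the test. Oas2, of the same enzyme family, was at 0.238 and 0.199 CPM in DuxKO and 1.04 and 1.90 in Ctbp_DuxTKO (log2 fold change 2.74, SE 0.56, adjusted p = 0.00152), and its WT and CtbpDKO libraries overlapped (1.17 and 2.02 against 0.641 and 1.23 CPM). Gbp4, a guanylate-binding protein, was at 0.476 and 0.266 CPM in DuxKO against 1.47 and 1.19 in Ctbp_DuxTKO (1.83 on the log2 scale), and at 0.248 and 0.0851 in Dppa2KO against 1.40 and 0.932 in DKO_Dppa2 (2.77). Both pairs of groups were apart, and all 4 values without CtBP were above 0.9 CPM. With each of the 4 libraries left out, the first of these log2 fold changes ran from 1.45 to 2.29. That call rested on DuxKO replicate 2 and Ctbp_DuxTKO replicate 1.

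Tapbp was at 7.41 and 9.06 CPM in WT and 17.1 and 13.7 in CtbpDKO (log2 fold change 0.90, SE 0.17, adjusted p = 0.00131). The corresponding values were 5.10 and 6.95 and then 19.1 and 17.7 CPM without Dux (1.61 ± 0.17 (SE)) and 8.81 and 10.4 and then 16.2 and 17.3 CPM without Dppa2 (0.80 ± 0.17 (SE)). All 6 libraries without CtBP were above all 6 with it. The class I heavy chains did not move together. H2-D1 rose in CtbpDKO (6.91 and 7.34 to 13.8 and 11.0 CPM, 0.79 on the log2 scale) and in Ctbp_DuxTKO against DuxKO (1.05). H2-K1 fell in DKO_Dppa2 against Dppa2KO (10.4 and 6.61 CPM to 3.36 and 2.97 CPM, log2 fold change -1.43, SE 0.23, adjusted p = 0.00035) and in Ctbp_DuxTKO against DuxKO (-0.59, adjusted p = 0.0419). Irf1 rose without CtBP in both compound backgrounds, from 7.72 and 6.78 to 12.6 and 16.0 CPM without Dux (log2 fold change 0.98, SE 0.17, adjusted p = 0.00039) and from 7.57 and 6.47 to 10.9 and 13.2 CPM without Dppa2 (log2 fold change 0.78, SE 0.17, adjusted p = 0.00305). With both present it was at 9.02 and 9.75 CPM in WT and 6.62 and 7.96 in CtbpDKO and did not pass the test.

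Ifitm1 was at 47.4 and 43.8 CPM in WT and 17.4 and 19.7 in CtbpDKO (log2 fold change -1.29, SE 0.13, adjusted p = 8.9e-06), the fall with the smallest adjusted p among the members in this comparison. It was at 43.7 and 36.2 CPM in DuxKO against 21.6 and 26.9 in Ctbp_DuxTKO (-0.72) and at 50.8 and 44.3 in Dppa2KO against 31.5 and 33.4 in DKO_Dppa2 (-0.55). Each library without CtBP was below each library with it. Ifitm3 was at 35.2 and 44.7 CPM in WT and 21.4 and 18.1 in CtbpDKO (log2 fold change -1.02, SE 0.13, adjusted p = 7.8e-05), at 60.0 and 56.9 against 17.4 and 19.6 without Dux (-1.66), and at 46.7 and 39.9 against 25.2 and 24.7 without Dppa2 (-0.80). Ifitm2 fell less than Ifitm1, with log2 fold changes of -0.51, -0.66 and -0.49 in the same order. The 3 genes lie in one stretch of chromosome 7, between positions 140954837 and 141010744 in RefSeq's GRCm38.p6.

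Mavs was at 17.9 and 20.4 CPM in WT, 19.7 and 16.0 in DuxKO and 24 and 24.5 in Dppa2KO, against 11.3 and 11.4 in CtbpDKO, 10.7 and 12.1 in Ctbp_DuxTKO and 15.2 and 15.9 in DKO_Dppa2. Each line without CtBP was below its parent, with log2 fold changes of -0.75, -0.64 and -0.64. Stat2 was at 10.7 and 15.2 CPM in WT and 8.42 and 6.96 in CtbpDKO (log2 fold change -0.75, SE 0.19, adjusted p = 0.00843). Its falls without Dux (12.9 and 12.9 to 5.85 and 8.25 CPM, -0.86) and without Dppa2 (12.5 and 12.6 to 8.16 and 8.81 CPM, -0.56) were of similar size. Csf1, a growth factor of macrophages, fell in Ctbp_DuxTKO against DuxKO, from 3.98 and 1.5 to 0.390 and 0.272 CPM (log2 fold change -3.05, SE 0.61, adjusted p = 0.00135), and did not pass the test in the other 2 backgrounds.

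Several of these calls rested on 1 library. In CtbpDKO against WT, Oas1a lost its call without any 1 of the 4 libraries (adjusted p 0.0586 to 0.126) and Stat2 without WT replicate 2 or CtbpDKO replicate 2 (adjusted p 0.0798 to 0.118). In DKO_Dppa2 against Dppa2KO, Stat2 lost it without any 1 of the 4 libraries (adjusted p 0.0893 to 0.158). Stat2 in that last comparison also missed the threshold with DESeq2 (adjusted p = 0.0520).

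**Figure D1:**
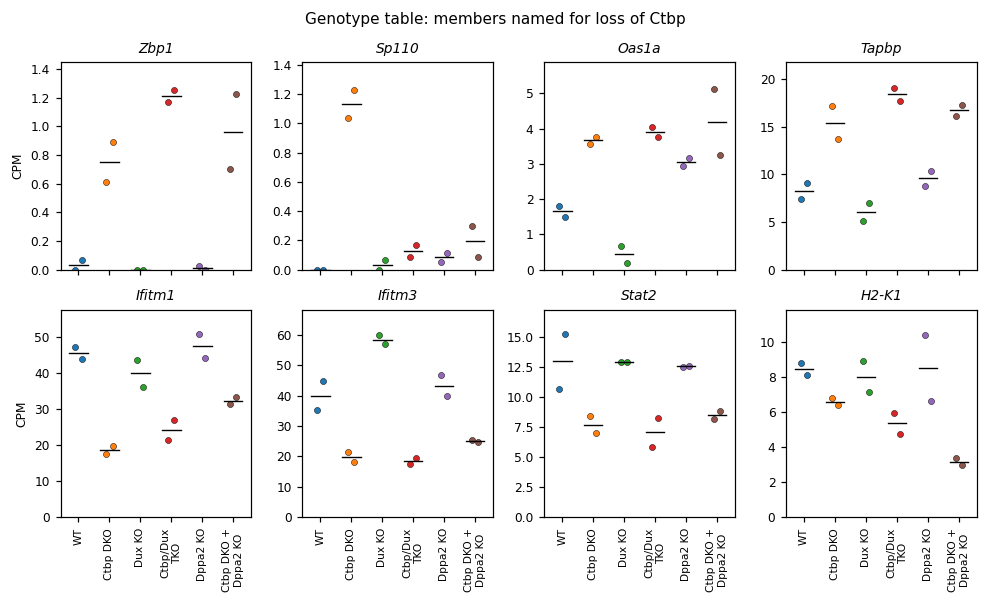
Members (8 of the 49) in the 12 libraries of the genotype table, on CPM axes from 0, with a point for each library and a line at the mean of each group of 2. The libraries without CtBP (CtbpDKO, Ctbp_DuxTKO and DKO_Dppa2) lie above their parents for Zbp1 and Tapbp and below them for Ifitm1 and Ifitm3.

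The difference between backgrounds was tested itself. CtBP loss without Dux differed from CtBP loss with Dux in 9 of 37 members, 6 with a positive and 3 with a negative difference (19.5% of all genes in either direction). Irf1 (1.34 ± 0.23 (SE), adjusted p = 0.00165) and Trim25, a ubiquitin ligase that acts on the RNA sensor RIG-I (1.00 ± 0.14 (SE), adjusted p = 0.00036), had positive differences, as did Oas2 (3.51), Oas1a, Parp14 and Ifitm1. Csf1 (-4.05 ± 0.89 (SE), adjusted p = 0.00659), Samhd1 and Ifitm3 had negative ones. Oas1a, Parp14, Ifitm1 and Ifitm3 lost their call without 1 or another of the 8 libraries (adjusted p 0.0550 to 0.183). CtBP loss without Dppa2 differed from CtBP loss with Dppa2 in 3 members (8.23% of all genes in either direction): Irf1 (1.14 ± 0.23 (SE), adjusted p = 0.0106), Ifitm1 (0.74) and H2-K1 (-1.07). The count of 3 became 1 without WT replicate 1 or 2, CtbpDKO replicate 1, or DKO_Dppa2 replicate 1 or 2.

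Loss of Dux was measured in both the genotype and the Pramel7 table, with no library in common, and the members moved differently in them. In the genotype table, DuxKO against WT had 4 of 37 members higher and 5 lower (7.94% and 9.56% of all genes), with a median of -0.02 against -0.012 over all genes. In the Pramel7 table, 3 of 40 were higher and 16 lower (7.76% and 8.91% of all genes), with a median of -0.94, or -0.61 with genes at the floor set to their bound, against -0.0065 over all genes. Among the 16, Isg15, Psmb8 and Zbp1 were tested only because WT was high. In 11 of the 40 members this table's WT libraries were above all its others (below). Of the 36 members tested in both, Csf1 rose in both and Oas1a, Bst2 and Parp14 fell in both, beside 2.24% and 3.4% of all genes tested in both. Gbp2 rose in the genotype table and fell in the Pramel7 table, as did 0.395% of all genes, and no member did the opposite (0.354% of all genes).

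Csf1 was at 0.201 and 0.359 CPM in WT and 3.98 and 1.5 in DuxKO of the genotype table (log2 fold change 3.27, SE 0.61, adjusted p = 0.00257), and at 1.55, 1.57, 1.12 and 1.09 CPM in WT and 5.09 and 5.47 in DuxKO of the Pramel7 table (log2 fold change 1.98, SE 0.36, adjusted p = 0.00260). The groups did not overlap in either. Oas1a was at 1.81 and 1.5 against 0.680 and 0.199 CPM in the first (-1.91 ± 0.41 (SE)) and at 5.34, 5.46, 3.85 and 5.60 against 0.447 and 0.536 CPM in the second (-3.33 ± 0.49 (SE)). Parp14, an ADP-ribosyltransferase, was at 4.56 and 5.28 against 1.90 and 1.80 CPM (log2 fold change -1.41, SE 0.27, adjusted p = 0.00286), and at 2.95, 3.46, 5.39 and 7.19 against 1.01 and 1.07 CPM (log2 fold change -2.18, SE 0.46, adjusted p = 0.00602). Both genes were low in all 4 DuxKO libraries. Oas2 passed the test in the genotype table alone (1.17 and 2.02 CPM in WT against 0.238 and 0.199 in DuxKO, log2 fold change -2.85, SE 0.55, adjusted p = 0.00326). So did Trim25 (137 and 147 against 77.2 and 71.5 CPM, log2 fold change -0.94, SE 0.10, adjusted p = 3.8e-05). In the Pramel7 table both also had negative log2 fold changes, -1.45 (SE 0.55) for Oas2 and -0.43 (SE 0.17) for Trim25. The difference between tables was not tested.

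Gbp2, an interferon-induced GTPase, was at 2.41 and 2.39 CPM in the DuxKO libraries of the genotype table and 2.91 and 3.04 in those of the Pramel7 table, each on its own table's scale. Its WT libraries were at 0.0671 and 0.359 CPM (2 and 11 counts) in the first and at 19.7, 30.5, 12.2 and 8.60 CPM in the second. The contrast with WT was positive in the first table and negative in the second (3.46 ± 0.66 (SE) and -2.57 ± 0.43 (SE)). Samhd1, a nucleotide hydrolase that starves viral synthesis (26.0 and 26.1 CPM in WT, 34.4 and 36 in DuxKO, 0.43), and Ifitm3 (35.2 and 44.7 CPM in WT, 60.0 and 56.9 in DuxKO, 0.55) rose in the genotype table.

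Without DuxKO replicate 1 the 9 calls of the genotype table became 5. Csf1 lost its call there without DuxKO replicate 1 (adjusted p 0.0564), Oas1a without DuxKO replicate 2 (adjusted p 0.0583), Ifitm3 without WT replicate 1 or DuxKO replicate 1 (adjusted p 0.0756 to 0.123) and Samhd1 without any 1 of the 4 libraries (adjusted p 0.0755 to 0.116). In the Pramel7 table the 19 calls became 10 without DuxKO replicate 3 and 9 without DuxKO replicate 4, where the remaining library is assumed to vary like the other groups.

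**Figure D2:**
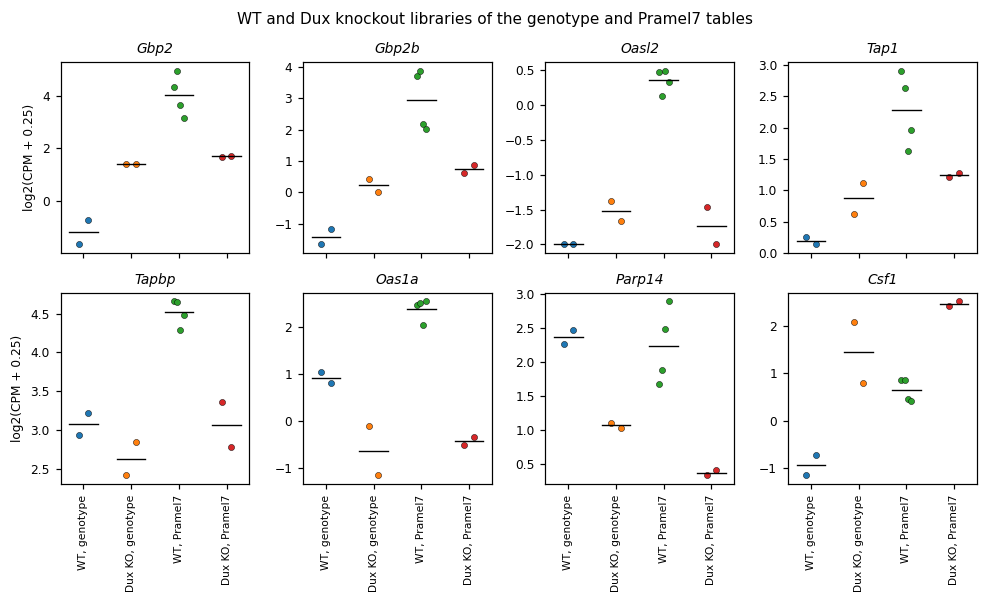
WT and DuxKO libraries of the genotype and Pramel7 tables for 8 members, as log2(CPM + 0.25), with a point for each library and a line at each group's mean on that scale; the vertical axes differ between panels and CPM were scaled separately in each table. DuxKO lies below WT in both tables for Oas1a and Parp14 and above it in both for Csf1, while for Gbp2 it lies above the genotype table's WT and below the Pramel7 table's WT.

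In the Ctbp-deficient background, Ctbp_DuxTKO against CtbpDKO had 4 members higher and 1 lower (3.6% and 4.54% of all genes; members' median 0.09, all genes 0.0021). Gbp2 had 2 and 0 counts in CtbpDKO and 20 and 29 in Ctbp_DuxTKO, at least 10.6-fold higher (adjusted p = 0.00622). Irf1 (6.62 and 7.96 to 12.6 and 16.0 CPM, log2 fold change 0.97, SE 0.16, adjusted p = 0.00327) and Tap1, a subunit of the peptide transporter (1.86 and 1.06 to 4.29 and 4.04 CPM, log2 fold change 1.51, SE 0.33, adjusted p = 0.0147), rose with non-overlapping libraries. The RNA editing enzyme Adar rose from 43.5 and 38.8 to 50.8 and 55.4 CPM (0.37), and Bst2 fell from 14.5 and 9.84 to 7.46 and 7.13 CPM (-0.74). Of the 5, Irf1 alone kept its call when each library was left out (adjusted p at most 0.0467). Gbp2 lost it without CtbpDKO replicate 2 (adjusted p 0.0547), Tap1 without CtbpDKO replicate 2 or Ctbp_DuxTKO replicate 1 (adjusted p 0.0767 to 0.115), Bst2 without CtbpDKO replicate 1 or Ctbp_DuxTKO replicates 1 or 2 (adjusted p 0.0935 to 0.255) and Adar without any 1 of the 4 libraries (adjusted p 0.0736 to 0.217). The count was 3 without CtbpDKO replicate 1 and 2 without CtbpDKO replicate 2 or Ctbp_DuxTKO replicate 1.

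Loss of Dppa2 was tested with and without CtBP. Dppa2KO against WT had 3 higher and 1 lower (7.67% and 8.69% of all genes; members' median 0.04, all genes -0.017). Ifitm2 was at 98.3 and 98.7 CPM in WT and 157 and 138 in Dppa2KO (log2 fold change 0.58, SE 0.10, adjusted p = 0.00205), and the transcription factor Irf3 at 9.39 and 9.19 and 13.7 and 13.3 CPM (0.54). Samhd1 (26.0 and 26.1 to 34.5 and 33.2 CPM, 0.38) also rose, and Trim25 fell (137 and 147 to 96.2 and 117 CPM, -0.41). Only 1 member without WT replicate 2, and 2 without any of the other 3 libraries, passed the test: Irf3 lost its call without any 1 of the 4 libraries (adjusted p 0.0662 to 0.129), Samhd1 without any 1 of the 4 libraries (adjusted p 0.0930 to 0.164) and Trim25 without WT replicate 2 or Dppa2KO replicate 1 (adjusted p 0.105 to 0.141).

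DKO_Dppa2 against CtbpDKO had 5 members higher and 4 lower (5.75% and 9.67% of all genes; members' median 0.21, all genes -0.031). Gbp2 went from 2 and 0 to 18 and 12 counts, at least 8.04-fold higher (adjusted p = 0.00752), as it was also above CtbpDKO in Ctbp_DuxTKO, a comparison that shares the CtbpDKO libraries. Ifitm1 (17.4 and 19.7 to 31.5 and 33.4 CPM, log2 fold change 0.80, SE 0.13, adjusted p = 0.00154), Ifitm2 (64.5 and 73.9 to 102 and 107 CPM, 0.60), Irf1 (0.73) and Mavs (0.45) rose. Both class I heavy chains fell, H2-K1 from 6.77 and 6.37 to 3.36 and 2.97 CPM (log2 fold change -1.06, SE 0.23, adjusted p = 0.00763) and H2-D1 from 13.8 and 11.0 to 7.91 and 6.19 CPM (log2 fold change -0.81, SE 0.20, adjusted p = 0.0152). Oasl1, a relative of the oligoadenylate synthetases, went from 44 and 32 to 4 and 0 counts (log2 fold change -3.52, SE 1.00, adjusted p = 0.0314), and Trim25 fell from 148 and 148 to 111 and 105 CPM (-0.45). The 9 calls became 4 without CtbpDKO replicate 1 and 3 without DKO_Dppa2 replicate 2. Calls were lost for Gbp2 without CtbpDKO replicate 2 (adjusted p 0.0657), Irf1 without CtbpDKO replicate 1 or DKO_Dppa2 replicate 2 (adjusted p 0.0794 to 0.117), Oasl1 without CtbpDKO replicates 1 or 2 or DKO_Dppa2 replicate 2 (adjusted p 0.0755 to 0.194), Trim25 without CtbpDKO replicates 1 or 2 or DKO_Dppa2 replicate 2 (adjusted p 0.0536 to 0.0782), H2-K1 without DKO_Dppa2 replicate 2 (adjusted p 0.0744) and H2-D1 without CtbpDKO replicate 1 or DKO_Dppa2 replicate 2 (adjusted p 0.129 to 0.145).

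In the Pramel7 table all 4 WT libraries were above all 8 others in 11 of the 40 members tested, against 3.17% of all genes tested, and below all 8 others in none, against 3.01%. The 11 were Irf1, Gbp2, Gbp2b, Gbp3, Gbp7, Isg15, Oasl2, Oas1a, Zbp1, Psmb8 and Tapbp. Isg15, Psmb8 and Zbp1 reached the filter's minimum in fewer than 2 libraries outside WT, so that they were tested only because they were high there and had to differ. In the same way Sp110 reached it only in P7OE. The WT libraries also differed among themselves: replicates 3 and 4 were both above replicates 5 and 6 in 15 of the 40 members and both below them in 11, against 26.5% and 28.0% of all genes, and the labels do not say whether they were made together. All 3 contrasts with WT share these 4 libraries, so a difference particular to them and effects of the lines cannot be told apart. WT trophoblast markers summed to 101 to 226 CPM in these 4 libraries, against 47.2 to 111 in the 8 others, and the part of this in the members' levels was not tested.

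Gbp2 was at 19.7, 30.5, 12.2 and 8.60 CPM in WT replicates 3 to 6, at 2.91 and 3.04 in DuxKO, 0.911 and 0.975 in P7KO, 0.903 and 0.730 in P7OE and 0.917 and 0.578 in DuxKO_P7OE. Gbp2b was at 12.9, 14.4, 4.31 and 3.82 CPM in WT and at 1.29 and 1.57, 0.189 and 0.940, 0.194 and 0.243, and 0.367 and 0.386 in the same 4 groups. Gbp3 was at 5.03, 4.98, 3.19 and 1.77 CPM in WT and at 0.112 and 0.572, 0.566 and 0.870, 0.161 and 0, and 0.917 and 0.771 in them. In all 3 genes the lowest WT library, replicate 6, was above every other library, and replicates 3 and 4 were the highest. Gbp7 was at 2.08, 2.09, 0.962 and 1.00 CPM in WT and at most 0.487 elsewhere, and Gbp4, on chromosome 5, overlapped between WT and P7OE. Gbp7, Gbp3, Gbp2b and Gbp2 follow each other on chromosome 3, between positions 142530336 and 142638008 (GRCm38.p6).

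Irf1 was at 20.3, 19.1, 28.7 and 20.1 CPM in WT, 8.61 and 8.43 in DuxKO, 11.2 and 12.1 in P7KO, 8.39 and 6.82 in P7OE and 12 and 12.9 in DuxKO_P7OE. WT replicate 5 was the highest, and no other library reached the lowest WT value. Psmb8, the immunoproteasome subunit, was at 5.68, 5.06, 2.77 and 2.73 CPM in WT and at 0.503 CPM or less in the other 8. Isg15, the ubiquitin-like modifier, had 19, 11, 7 and 10 counts in WT and none in 7 of the other 8 libraries (4 counts in P7KO replicate 1). Oasl2 was at 1.14, 0.844, 1.15 and 1.00 CPM in WT and at 0.581 CPM or less in the others, and Zbp1 at 0.871, 1.17, 0.693 and 0.637 CPM and 0.278 CPM or less. On the genotype table's own scale, WT had 0 and 0 counts of Psmb8, 0 and 0 of Isg15, 0 and 0 of Oasl2 and 0 and 2 of Zbp1. The WT libraries of these tables thus stood apart in the same members, which no test within a table can address.

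**Figure D3:**
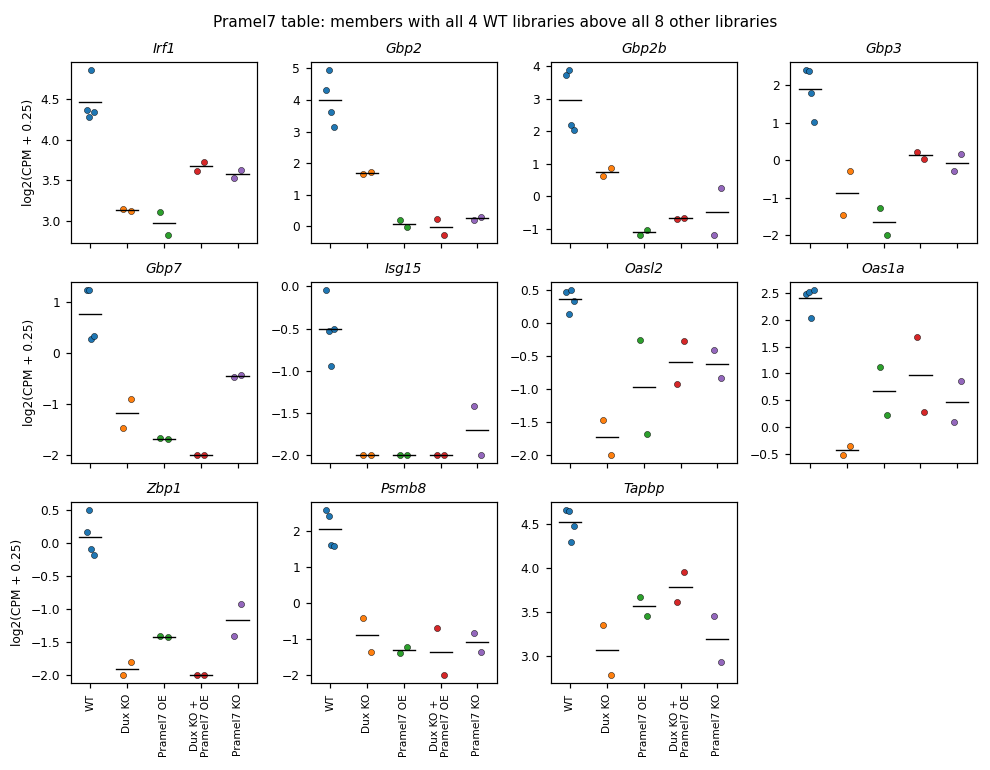
The 11 members with all 4 WT libraries above all 8 others in the Pramel7 table, as log2(CPM + 0.25) for each library, with a line at each group's mean on that scale and vertical axes that differ between panels. The WT points stand above the DuxKO, P7KO, P7OE and DuxKO_P7OE points in each panel, and for Gbp2, Gbp2b, Gbp3 and Gbp7 they split into the higher replicates 3 and 4 and the lower replicates 5 and 6.

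Promoters were searched because these 11 genes were high together in the same 4 libraries, a set chosen after its values were seen. Windows came from RefSeq (GRCm38.p6), from 250 bases before to 50 bases after a transcript start, and 39 of the 49 members had one. Both strands were searched for the ISRE core GAAANNGAAA and the GAS letters TTCNNNGAA, with overlapping matches counted separately. The ISRE core was found in 18 of the members' 47 windows (38.3%) and in 3.44% of 32851 windows of all genes, and the GAS letters in 11 of 47 (23.4%) and 8.30% of all windows. Of the 11 genes, 10 had a window and 8 of these held one or the other motif, as did 15 of the 29 other members with a window, where any of a gene's windows counted. Of all windows, 11.3% held one or the other. The list was chosen as interferon genes, so a high share of these motifs in it is no result of these data. Isg15 and Psmb8, among the 8, were tested only because WT was high. The windows of Oasl2 and Tapbp held neither. The 250 bases before the start are given for the 8 with a match, 5′ to 3′ on the gene's strand, with matches in capitals.
Gbp2, chr3:142620413-142620662, plus strand: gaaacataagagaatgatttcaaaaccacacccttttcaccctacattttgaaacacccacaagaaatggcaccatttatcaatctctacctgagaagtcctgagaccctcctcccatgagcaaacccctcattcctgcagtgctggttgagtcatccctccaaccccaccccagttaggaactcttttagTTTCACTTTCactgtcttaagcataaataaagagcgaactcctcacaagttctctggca
Gbp2b, chr3:142594597-142594846, plus strand: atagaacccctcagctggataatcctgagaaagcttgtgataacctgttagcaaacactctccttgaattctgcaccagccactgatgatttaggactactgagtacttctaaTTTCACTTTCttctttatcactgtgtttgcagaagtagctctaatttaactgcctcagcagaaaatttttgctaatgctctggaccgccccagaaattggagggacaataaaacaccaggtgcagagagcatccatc
Gbp3, chr3:142559794-142560043, plus strand: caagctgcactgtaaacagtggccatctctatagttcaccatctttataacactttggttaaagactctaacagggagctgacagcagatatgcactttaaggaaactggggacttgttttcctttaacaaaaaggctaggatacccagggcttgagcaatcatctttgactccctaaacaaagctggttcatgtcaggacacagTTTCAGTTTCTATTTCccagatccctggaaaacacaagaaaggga
Gbp7, chr3:142530086-142530335, plus strand: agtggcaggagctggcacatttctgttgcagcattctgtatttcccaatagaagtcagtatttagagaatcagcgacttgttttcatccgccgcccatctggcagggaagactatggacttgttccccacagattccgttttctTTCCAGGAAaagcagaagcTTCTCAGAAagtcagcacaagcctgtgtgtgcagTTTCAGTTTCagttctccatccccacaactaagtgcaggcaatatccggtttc
Irf1, chr11:53769764-53770013, plus strand: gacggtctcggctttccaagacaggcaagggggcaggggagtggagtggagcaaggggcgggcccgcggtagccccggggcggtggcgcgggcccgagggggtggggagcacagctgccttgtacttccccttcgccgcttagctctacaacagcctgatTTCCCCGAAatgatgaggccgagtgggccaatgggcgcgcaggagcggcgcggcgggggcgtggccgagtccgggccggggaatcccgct
Isg15, chr4:156200819-156201068, minus strand: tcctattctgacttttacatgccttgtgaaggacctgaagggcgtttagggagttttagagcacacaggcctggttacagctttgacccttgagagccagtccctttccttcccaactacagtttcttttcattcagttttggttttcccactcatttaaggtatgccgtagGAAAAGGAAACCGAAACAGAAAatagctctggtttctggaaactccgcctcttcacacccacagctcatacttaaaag
Oas1a, chr5:120907526-120907775, minus strand: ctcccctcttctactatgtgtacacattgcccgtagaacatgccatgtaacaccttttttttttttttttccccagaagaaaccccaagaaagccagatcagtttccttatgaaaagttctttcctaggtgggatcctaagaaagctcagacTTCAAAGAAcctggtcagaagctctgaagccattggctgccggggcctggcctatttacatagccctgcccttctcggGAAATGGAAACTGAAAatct
Psmb8, chr17:34197945-34198194, plus strand: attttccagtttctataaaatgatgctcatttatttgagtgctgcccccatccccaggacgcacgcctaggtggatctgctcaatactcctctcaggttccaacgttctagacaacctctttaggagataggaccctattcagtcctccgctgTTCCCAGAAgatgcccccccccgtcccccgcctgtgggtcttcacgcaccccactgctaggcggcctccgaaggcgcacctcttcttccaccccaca
Gbp2 and Gbp2b hold the same ISRE match, on the reverse strand, at different distances from the start. Gbp3, Isg15 and Oas1a hold overlapping ISRE matches, and Irf1 and Psmb8 hold GAS letters alone. A match describes letters and does not show that a factor bound there.

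Against these WT libraries each altered line was compared, and the 3 comparisons share all 4 WT libraries. P7OE had 2 of 40 members higher and 16 lower (11.0% and 8.9% of all genes), with a median of -0.65 against -0.013 over all genes. P7KO had 4 higher and 13 lower (3.93% and 5.55% of all genes), with a median of -0.67 against 0.012. DuxKO had 3 higher and 16 lower, as given above. Of the lower members, Isg15, Psmb8 and Zbp1 in DuxKO and in P7OE, and Psmb8 in P7KO, were tested only because WT was high, as was Sp110, 1 of the 2 higher in P7OE, only because P7OE was high. With WT replicates 3 and 4 as the only controls, the counts of higher and lower members were 4 and 17 in DuxKO, 4 and 19 in P7OE, and 7 and 14 in P7KO. With replicates 5 and 6 they were 3 and 17, 1 and 12, and 2 and 11.

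The guanylate-binding proteins had 5 of 5 tested members lower in DuxKO, 4 in P7OE and 3 in P7KO, against 8.91%, 8.9% and 5.55% of all genes. The log2 fold changes of Gbp2 were -2.57, -4.41 and -4.23 in DuxKO, P7OE and P7KO (adjusted p = 0.00142, 9.2e-05 and 0.00018). Gbp2b changed by -2.62, -5.35 and -3.99, and Gbp3 by -3.32, -5.14 and -2.38. Gbp7 changed by -2.84 in DuxKO and was at least 11.0-fold lower in P7OE, where it had 2 and 1 counts. In P7KO, Gbp2b lost its call without P7KO replicate 1 (adjusted p 0.0567).

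Of the 9 antigen presentation genes 4 fell in DuxKO, 4 in P7OE and 6 in P7KO, and none rose. Over all genes, 8.91%, 8.9% and 5.55% fell and 7.76%, 11.0% and 3.93% rose. Psmb8 is in each of the lower counts but was tested only because WT was high, so the filter fixed its direction. Its log2 fold changes of -3.75, -4.72 and -4.11 in DuxKO, P7OE and P7KO are a description. Tapbp, at 25.0, 24.9, 19.4 and 22.1 CPM in WT, was at 10.0 and 6.65, 12.5 and 10.8, and 10.7 and 7.38 (-1.46, -0.97 and -1.33). H2-K1, at 26.1, 27.3, 14.4 and 13.5 CPM in WT, was at 9.96 and 9.04, 9.13 and 8.22, and 8.67 and 7.48 (-1.10, -1.23 and -1.33). Both were lower in all 6 of these libraries than in any WT library. The peptide transporter subunit Tap2 was at 2.08, 1.53, 0.808 and 0.682 CPM in WT, 0.129 and 0.365 in P7OE (log2 fold change -2.47, SE 0.69, adjusted p = 0.0242) and 0.126 and 0.139 in P7KO (log2 fold change -3.22, SE 0.71, adjusted p = 0.0125), and it lost its call in P7KO without P7KO replicates 1 or 2 (adjusted p 0.109 to 0.148). Tap1 fell in DuxKO (-1.21) and P7KO (-2.31). H2-D1, at 14.2, 13.5, 8.16 and 6.05 CPM in WT, fell in P7KO to 2.86 and 2.54 (log2 fold change -1.95, SE 0.34, adjusted p = 0.00265) and was at 12 and 10.5 CPM in P7OE. B2m, the class I light chain, and Nlrc5, the class I transactivator, passed no test in this table.

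Among the antiviral effectors, Isg15 was at least 3.43-fold lower in DuxKO and 3.37-fold lower in P7OE, Oasl2 at least 7.52-fold lower in DuxKO, and the sensor Zbp1 at least 6.12-fold lower in DuxKO. The bounds of Isg15 and Zbp1 are a description, since the filter fixed their direction. Oasl2 passed the test (adjusted p = 0.0102) and lost its call without DuxKO replicate 4 (adjusted p 0.128). Oas1a fell in all 3 lines (-3.33, -1.77 and -2.09), as did Irf1 (-1.37, -1.53 and -0.92). Bst2 divided the lines. It was at 11.8, 11.3, 7.89 and 9.78 CPM in WT, 5.09 and 3.93 in DuxKO (-1.18), 3.36 and 4.21 in P7KO (-1.43) and 13.1 and 13.0 in P7OE, the last above every WT library without passing the test.

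Ifitm1 went in opposite directions in the Pramel7 lines, which share their controls. It was at 50.5, 54.2, 64.7 and 56.5 CPM in WT, 21.7 and 20.4 in P7OE (log2 fold change -1.42, SE 0.14, adjusted p = 2.5e-05) and 96.6 and 102 in P7KO (log2 fold change 0.81, SE 0.12, adjusted p = 0.00124). The 3 groups did not overlap. Csf1 was at 0.126 and 0.348 CPM in P7KO against 1.55, 1.57, 1.12 and 1.09 in WT (log2 fold change -2.49, SE 0.50, adjusted p = 0.00747), and at 0.936 and 0.852 in P7OE, which did not pass the test.

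Few members rose. Oas2 was at 0.719, 0.281, 0.924 and 0.728 CPM in WT and 1.65 and 1.70 in P7OE (log2 fold change 1.33, SE 0.42, adjusted p = 0.0411), and Sp110 had 2, 1, 0 and 0 counts in WT and 16 and 8 in P7OE, at least 4.13-fold higher, a description for the reason given above. Rsad2 (viperin) was at 0.151, 0.0804, 0.308 and 0.637 CPM in WT and 1.57 and 1.08 in P7KO (log2 fold change 2.18, SE 0.60, adjusted p = 0.0366). Mavs rose in DuxKO (12.6, 12.3, 13.1 and 13.1 CPM in WT to 19.0 and 20.8, 0.64) and in P7KO (18.1 and 19.8 CPM, 0.57), and so did Ifitm2 (133, 109, 118 and 107 CPM in WT to 157 and 147 in DuxKO and 158 and 188 in P7KO, 0.38 and 0.57). Most of these calls were lost with 1 library fewer: Oas2 without WT replicates 3 or 4 or P7OE replicates 1 or 2 (adjusted p 0.0622 to 0.173), Rsad2 without WT replicates 3, 4 or 5 or P7KO replicates 1 or 2 (adjusted p 0.0575 to 0.314), Mavs in DuxKO without DuxKO replicate 4 (adjusted p 0.0987) and in P7KO without WT replicate 4 or P7KO replicates 1 or 2 (adjusted p 0.0515 to 0.173), and Ifitm2 in DuxKO without WT replicates 4, 5 or 6 or DuxKO replicates 3 or 4 (adjusted p 0.0715 to 0.327) and in P7KO without P7KO replicate 2 (adjusted p 0.175). The counts of calls fell to 9 and 7 in P7OE without replicate 1 or 2 of P7OE, and to 8 and 10 in P7KO without replicate 1 or 2 of P7KO.

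Pramel7 overexpression was also compared in cells without Dux. DuxKO_P7OE against DuxKO had 3 higher and 7 lower (11.6% and 9.83% of all genes; members' median 0.04, all genes -0.028). Oas2 went from 0.224 and 0.25 to 1.47 and 2.70 CPM (log2 fold change 3.09, SE 0.60, adjusted p = 0.00302), Oas1a from 0.447 and 0.536 to 2.94 and 0.964 (log2 fold change 1.97, SE 0.57, adjusted p = 0.0273) and Bst2 from 5.09 and 3.93 to 14.6 and 16.8 (log2 fold change 1.81, SE 0.23, adjusted p = 0.0002). Csf1 fell from 5.09 and 5.47 to 0.917 and 0.193 CPM (log2 fold change -3.22, SE 0.54, adjusted p = 0.00133), and Ifit2, a protein that binds foreign RNA, from 1.17 and 1.68 to 0.183 and 0.386 (log2 fold change -2.33, SE 0.50, adjusted p = 0.00593). Gbp2 went from 2.91 and 3.04 to 0.917 and 0.578 CPM (-1.98) and Ifitm1 from 46.4 and 48.6 to 25.9 and 32.2 (-0.71). The remaining falls, of the kinase Eif2ak2 (PKR), Mavs and Ifitm2, were between -0.61 and -0.49 on the log2 scale. The 10 calls became 6 and 5 without DuxKO replicate 3 or 4 and 5 without DuxKO_P7OE replicate 1. Gbp2 lost its call without any 1 of the 4 libraries (adjusted p 0.104 to 0.202), Oas1a without DuxKO replicates 3 or 4 or DuxKO_P7OE replicate 1 (adjusted p 0.117 to 0.402), Ifit2 without DuxKO_P7OE replicate 1 (adjusted p 0.0643) and Ifitm1 without DuxKO_P7OE replicate 1 (adjusted p 0.0727).

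The difference between the Pramel7 effects with and without Dux passed the test in 9 of 40 members, 8 positive and 1 negative (7.5% of all genes in either direction). The positive ones included Irf1 (2.08 ± 0.28 (SE), adjusted p = 0.00088), Tapbp (1.69 ± 0.32 (SE), adjusted p = 0.00690), Oas1a (3.74) and Bst2 (1.45), and the negative one was Csf1 (-2.66). In each of these the DuxKO and WT starting levels differed (above), and Pramel7 itself was higher in DuxKO_P7OE than in P7OE. The difference also uses this table's WT libraries, so it cannot be told apart from a difference particular to them. DuxKO_P7OE against P7OE, the Dux contrast at high Pramel7, had no member called, with 0.0% of all genes higher and 0.0298% lower. By edgeR's unadjusted p under 0.05, 2250 of the 20161 genes differed there, DESeq2 called no member either, and the members' median was 0.14 against -0.022. The 9 differences became 5 and 4 without DuxKO replicate 3 or 4, 5 and 4 without P7OE replicate 1 or 2, and 5 without DuxKO_P7OE replicate 2. Of those named, Oas1a lost its call without DuxKO_P7OE replicate 1 (adjusted p 0.0799), Bst2 without DuxKO replicate 4, P7OE replicates 1 or 2 or DuxKO_P7OE replicate 2 (adjusted p 0.0512 to 0.0797) and Csf1 without WT replicate 5, DuxKO replicates 3 or 4, P7OE replicates 1 or 2 or DuxKO_P7OE replicate 2 (adjusted p 0.0565 to 0.128).

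**Figure D4:**
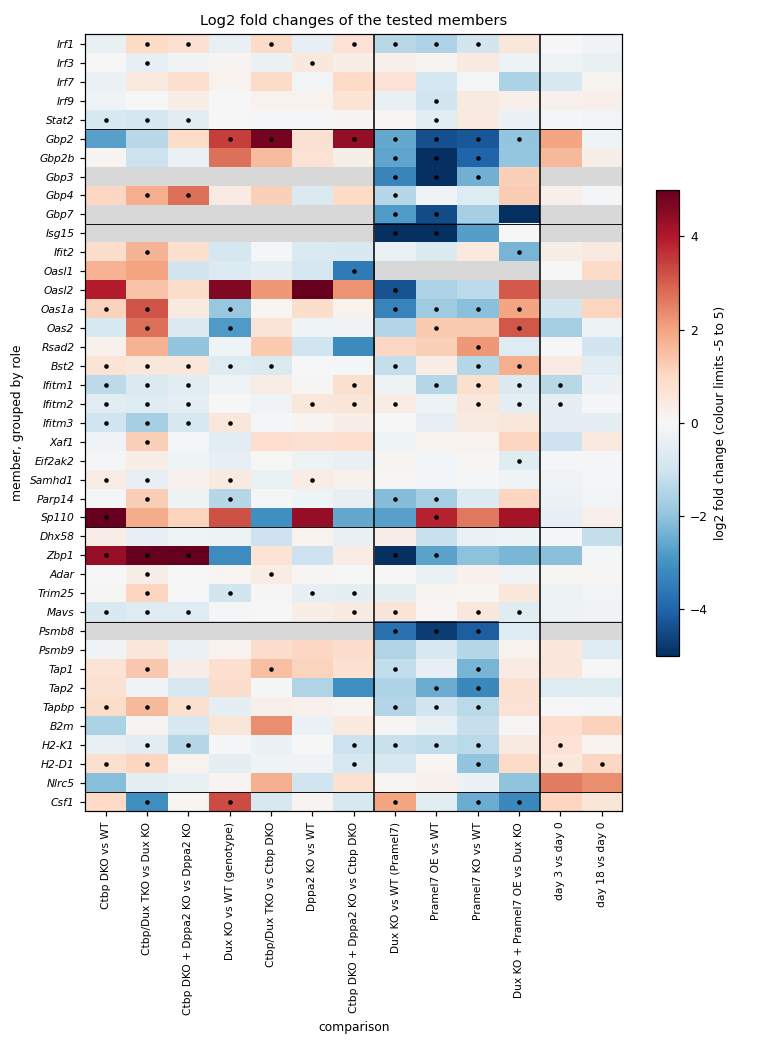
Fitted log2 fold changes of the 41 members tested in at least 1 table (rows) in the comparisons between groups (columns), on a colour scale limited to -5 to 5, with a dot where edgeR's adjusted p was under 0.05 and grey where a member was not tested. The comparisons of DuxKO, P7OE and P7KO with the WT libraries of the Pramel7 table hold 16, 16 and 13 dots below 0, and the 3 columns of CtBP loss share dots above 0 for Zbp1, Tapbp and Bst2.

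The time course was compared between days. Ctbp2 was at 58.9 and 59.3 CPM at day 0, 544 and 573 at day 3, 309.8 and 296 at day 9, 49.4 and 44.7 at day 12 and 52.4 and 54.7 at day 18, while Ctbp1 stayed at 0.17 CPM or less. Of 36 members tested, day 3 against day 0 had 2 higher and 2 lower (2.41% and 2.59% of all genes; members' median -0.04, all genes -0.0027). Day 9 against day 3 had 1 higher and none lower (0.524% and 0.592%), day 12 against day 9 had 1 higher and 1 lower (1.87% and 1.97%), and day 18 against day 12 had none higher and 1 lower (0.64% and 0.18%). Day 18 against day 0 had 1 higher and none lower (0.359% and 0.155%).

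Ifitm1 was at 49.6 and 47.1 CPM at day 0, 18.1 and 19.0 at day 3, 24.9 and 28.0 at day 9, 40.5 and 39.6 at day 12 and 40.7 and 39.3 at day 18. It fell to day 3 (log2 fold change -1.38, SE 0.11, adjusted p = 7.2e-06), when Ctbp2 was highest, and rose to day 9 (0.51 ± 0.11 (SE)) and to day 12 (0.60 ± 0.11 (SE)). Ifitm1 had also been lower in the lines without CtBP of the genotype table than in their parents. Day 0 carries the CtbpDKO label too, and Ifitm1 was at its highest of the time course there, unlike in CtbpDKO of the genotype table. The 2 tables were scaled separately, and this difference was not tested. Ifitm2 went from 83.8 and 91.7 to 57.8 and 68.4 CPM by day 3 (-0.48). Ifitm3 fell between day 12 (36.6 and 36.6 CPM) and day 18 (20.9 and 23.8 CPM, log2 fold change -0.71, SE 0.13, adjusted p = 0.0238).

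The class I heavy chains rose by day 3, H2-K1 from 13.0 and 14.1 to 22.4 and 22.7 CPM (log2 fold change 0.74, SE 0.16, adjusted p = 0.0184) and H2-D1 from 9.06 and 10.1 to 13.6 and 14.3 CPM (log2 fold change 0.54, SE 0.14, adjusted p = 0.0405). H2-D1 was at 21.4 and 18.2 CPM at day 18, above both day 0 libraries (log2 fold change 1.04, SE 0.14, adjusted p = 0.00273). Bst2 was at 21.0 and 18.5 CPM at day 9 and 14.4 and 11.0 at day 12 (log2 fold change -0.65, SE 0.15, adjusted p = 0.0249). Zbp1, at 1.54 and 1.07 CPM at day 0 and 0.342 and 0.255 at day 3, was lower in both day 3 libraries without passing the test. The fall of Ifitm1 to day 3 held without each library (adjusted p at most 0.00043). Calls were lost for H2-K1, H2-D1 and Ifitm2 at day 3 and for Ifitm1 at day 9 without any 1 of the 4 libraries, with adjusted p from 0.0641 to 0.316 over them. They were lost for Ifitm1 at day 12 without day 9 replicate 1 or day 12 replicates 1 or 2 (adjusted p 0.0663 to 0.0874), Bst2 without day 9 replicates 1 or 2 or day 12 replicate 2 (adjusted p 0.0631 to 0.268), Ifitm3 without day 12 replicates 1 or 2 or day 18 replicate 1 (adjusted p 0.168 to 0.198) and H2-D1 at day 18 without day 0 replicate 1 (adjusted p 0.0624). Without any 1 of their 4 libraries, 1 or 2 of the 4 calls at day 3, none at day 9 and at most 1 at day 12 remained. At day 18 none remained against day 12 without day 12 replicate 1 or day 18 replicate 1, nor against day 0 without day 0 replicate 1.

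**Figure D5:**
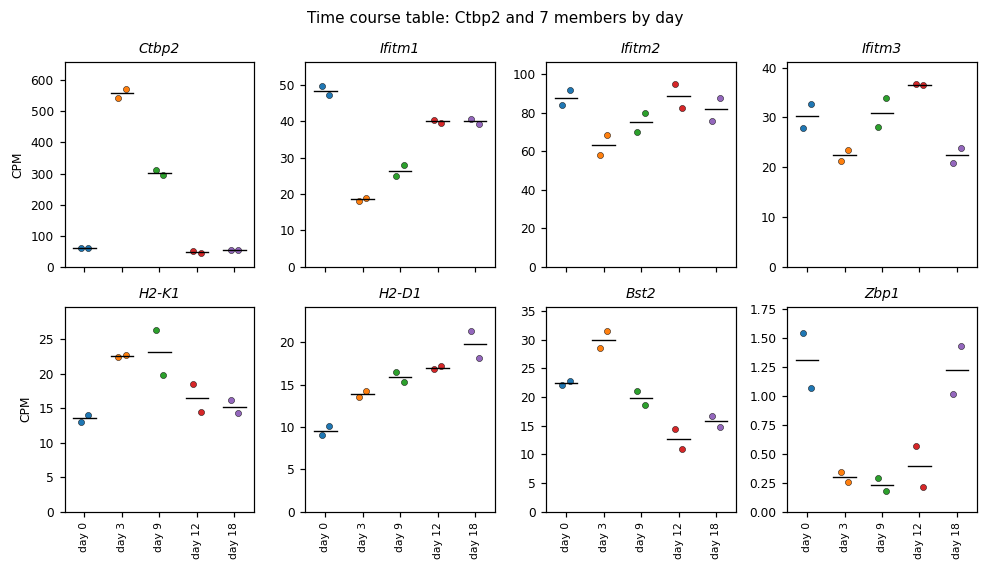
Ctbp2 and 7 members in the 10 libraries of the time course, in CPM from 0, with the days as categories, a point for each library and a line at the mean of each day's 2 libraries. Ctbp2 is highest and Ifitm1 lowest at day 3, and H2-D1 is highest at day 18.

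Genes of the pathway outside the list were counted the same way. Of 15 interferon receptor, kinase and signal inhibitor genes tested in the genotype table, 2 rose and 6 fell in CtbpDKO against WT: the interferon gamma receptor chain Ifngr1 fell (-1.16) while its partner Ifngr2 rose (1.17), the lambda interferon receptor Ifnlr1 rose (1.90) and Stat3 fell (-1.24). These counts and those that follow stand beside 14.7% of all genes higher and 11.4% lower in CtbpDKO, 21.4% and 19.6% in Ctbp_DuxTKO against DuxKO, and 15.2% and 15.2% in DKO_Dppa2 against Dppa2KO. Of 32 other interferon-stimulated genes, 10 rose and 4 fell in CtbpDKO (median 0.30), led by Ifi35, at 0.134 and 0.326 CPM in WT and 5.37 and 3.41 in CtbpDKO (4.22, adjusted p = 4.5e-06), and Helz2, at 0.403 and 1.11 and 6.62 and 6.37 CPM (3.09, adjusted p = 3e-05). In Ctbp_DuxTKO against DuxKO 13 rose and 4 fell, and in DKO_Dppa2 against Dppa2KO 7 rose and 1 fell. Of 30 other antigen presentation genes 7 rose and 2 fell in CtbpDKO, among them the tapasin relative Tapbpl (1.20), which rose, and the class II chaperone H2-DMb1 (-1.72), which fell. Of 19 further genes of nucleic acid sensing 4 rose and 3 fell there, and of 12 NF-kB targets 1 rose and none fell.

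In the Pramel7 table, 3 of 33 other interferon-stimulated genes rose and 12 fell in DuxKO (median -0.97), 1 rose and 7 fell in P7OE, and 3 rose and 7 fell in P7KO. Over all genes, 7.76% rose and 8.91% fell in DuxKO, 11.0% and 8.9% in P7OE, and 3.93% and 5.55% in P7KO. Oas1g fell in P7OE (4.28, 4.06, 2.19 and 3.59 CPM in WT, 1.10 and 0.304 in P7OE, -2.22). Of 29 other antigen presentation genes, 4 fell in DuxKO, 8 in P7OE and 2 in P7KO, and 1, 1 and none rose. Erap1, which trims peptides for class I, was at 8.14, 10.1, 7.12 and 4.82 CPM in WT and at most 3.11 CPM in the other 8 libraries (-1.57, -2.26 and -2.03 in DuxKO, P7OE and P7KO). H2-Q4, a nonclassical class I gene, was at 6.74, 7.79, 5.04 and 3.46 CPM in WT and at most 2.07 CPM in the others (-1.72, -3.26 and -1.66). Socs1, an inhibitor induced by interferon signalling, fell in DuxKO and P7KO (-1.64 and -1.37) and rose in DuxKO_P7OE against DuxKO (2.13).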

How the data were processed

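RNA-seq libraries of E14tg2a cells were made with a stranded kit, per the labels' protocols. The deposited tables hold whole-number read counts per gene, made by the authors with Trim Galore, HISAT2 and featureCounts on mm10, per the submitters' processing notes; versions, settings and the strand used in counting are not given in the sources used here. The 34 libraries came in 3 tables, each analysed alone: genotypes (12 libraries, 19944644 to 36025046 counts), Pramel7 lines (12 libraries, 10123058 to 30135341) and time course (10 libraries, 16674526 to 30169626). The 6 bisulfite libraries were not analysed here.

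Genes passing edgeR's filterByExpr (21193, 20161 and 20612) were fitted by edgeR 4.0.16 (R 4.3.3) with TMM factors, all libraries of a table in one fit on group alone, since most groups hold 2 libraries. Contrasts and differences of contrasts used the quasi-likelihood F test, with p adjusted by Benjamini and Hochberg over all tested genes and a threshold of 0.05. Fold changes used a prior count of 0.125, the SE is the log2 fold change over the square root of F, and CPM are on TMM-scaled library sizes, so CPM of different tables were scaled separately. Where a group had at most 3 counts in every library, a bound against 3 counts per library is given. Bounds and low counts cover counting error only.

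The members and the gene lists were chosen with earlier results of these data known. Libraries were grouped by GEO's labels. Values per library are given for called members with non-overlapping groups among the 4 largest changes in each direction and comparison, for the targeted genes, and for up to 2 genes per direction from other lists; other members named are chosen after their values were seen. Alternatives were DESeq2 1.42.0, upper quartile factors, no filter, a prior count of 2, a minimum log2 fold change of 1, fits of only the groups compared, removal of structural RNA genes, a replicate block, each library left out, and WT subsets. On simulated counts for CtbpDKO against WT (21193 genes), the test recovered 59% of 100 genes changed 2-fold and 62% of 100 changed 4-fold. The shares were 37% and 65% for P7OE against WT (20161 genes) and 51% and 75% for day 3 against day 0 (20612 genes). Each simulation changed fewer genes than were called in the data (3115 higher and 2407 lower in CtbpDKO against WT). The threshold on adjusted p was thus stricter there, so these shares may not describe the test on the data. No pair of libraries of a group agreed within sampling noise. Promoter windows came from RefSeq (GRCm38.p6).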

Additional observations from a re-analysis of the deposited data

Results flagged for a closer look

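Some results were singled out because the effect of one alteration differed between backgrounds by a test of the difference itself (edgeR's quasi-likelihood test of the interaction, Benjamini-Hochberg adjusted). For CtBP loss without Dux minus CtBP loss with Dux, the log2 differences were 1.34 for Irf1, 1.99 for Oas1a, 3.51 for Oas2, 0.58 for Ifitm1, -0.64 for Ifitm3, -0.78 for Samhd1, 1.29 for Parp14, 1.00 for Trim25 and -4.05 for Csf1. Of these, calls were lost for Oas1a without WT replicate 1 or DuxKO replicate 2 (adjusted p 0.0561 to 0.0669), Ifitm1 without WT replicates 1 or 2, DuxKO replicate 2, CtbpDKO replicates 1 or 2 or Ctbp_DuxTKO replicate 2 (adjusted p 0.0586 to 0.183), Ifitm3 without WT replicate 1, DuxKO replicates 1 or 2, CtbpDKO replicate 1 or Ctbp_DuxTKO replicate 1 (adjusted p 0.0550 to 0.115) and Parp14 without WT replicate 2, DuxKO replicates 1 or 2, CtbpDKO replicate 1 or Ctbp_DuxTKO replicate 1 (adjusted p 0.0650 to 0.0876). For CtBP loss without Dppa2 minus CtBP loss with Dppa2, they were 1.14 for Irf1, 0.74 for Ifitm1 and -1.07 for H2-K1, of which Ifitm1 lost its call without WT replicates 1 or 2, Dppa2KO replicate 2, CtbpDKO replicate 1 or DKO_Dppa2 replicates 1 or 2 (adjusted p 0.0529 to 0.0952) and H2-K1 without WT replicates 1 or 2, Dppa2KO replicate 1, CtbpDKO replicates 1 or 2 or DKO_Dppa2 replicates 1 or 2 (adjusted p 0.0864 to 0.173). For Pramel7 overexpression without Dux minus with Dux, they were 2.08 for Irf1, 6.31 for Gbp3, 3.74 for Oas1a, 1.45 for Bst2, 0.71 for Ifitm1, 2.72 for Parp14, 1.69 for Tapbp, 1.69 for H2-K1 and -2.66 for Csf1. There Ifitm1 lost its call without WT replicate 4, DuxKO replicates 3 or 4, P7OE replicates 1 or 2 or DuxKO_P7OE replicate 2 (adjusted p 0.0563 to 0.216), Parp14 without DuxKO replicates 3 or 4, P7OE replicates 1 or 2 or DuxKO_P7OE replicate 1 (adjusted p 0.0778 to 0.236) and H2-K1 without DuxKO replicates 3 or 4, P7OE replicates 1 or 2 or DuxKO_P7OE replicates 1 or 2 (adjusted p 0.0552 to 0.133).

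Among the 4 WT libraries of the Pramel7 table, replicate 5 stood apart from the other 3 by Dixon's test for Irf1 (28.7 CPM, the highest) and for Oas1a (3.85 CPM, the lowest). The limit was applied to all 40 tested members of this table and only these passed it. Chance alone puts about 1 in 20 such groups past this limit, so about as many are expected without any outlier.

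In 4 members, DuxKO lay above WT in every library of the genotype table and below WT in every library of the Pramel7 table. The log2 fold changes were 3.46 and -2.57 for Gbp2, 2.77 and -2.62 for Gbp2b, 4.64 and -4.35 for Oasl2, and 0.85 and -1.21 for Tap1. Those of Gbp2b, Oasl2 and Tap1 did not pass the test in the genotype table, and Oasl2 had no count in WT there, so its fitted value depends on the prior count. The difference between the tables was not tested.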

How the results depend on the processing

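None of the 107 single-member results changed sign under the alternatives run. Most were named because their libraries did not overlap, so a change of sign was unlikely from the start. The 20 counts have no sign and were compared by size. Upper quartile factors and removal of structural RNA genes kept all 20 counts within 1.5 times. A prior count of 2 alters fitted fold changes and not p-values, so it could not alter the counts. A minimum log2 fold change of 1 left 5 members in CtbpDKO against WT, 5 in DuxKO against WT of the genotype table, 2 in Ctbp_DuxTKO against CtbpDKO, 13 in Ctbp_DuxTKO against DuxKO, 0 in Dppa2KO against WT, 3 in DKO_Dppa2 against CtbpDKO, 3 in DKO_Dppa2 against Dppa2KO, 5 in the CtBP by Dux difference, 6 in DuxKO_P7OE against DuxKO, 1 at day 3 against day 0, and 0 at days 9, 12 and 18 against the time before. DESeq2 gave 14 in the Pramel7 by Dux difference and 2 at day 9. Without the filter there were 5 in the CtBP by Dppa2 difference, 2 in DuxKO_P7OE against P7OE, 14 in the Pramel7 by Dux difference, 3 at day 9, 4 at day 12 and 2 at day 18. With only the groups compared there were 2 at day 3, 0 at day 9, 1 at day 12 and 0 at day 18. With WT replicates 3 and 4 as the only controls the Pramel7 by Dux difference gave 16. Of the single-member results, the minimum fold change removed 44 calls, only the groups compared 14, DESeq2 2, upper quartile factors 4, no filter 3, removal of structural RNA genes 2, WT replicates 3 and 4 alone 2, and WT replicates 5 and 6 alone 4. The causes were not tested.

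The replicate numbers shared by groups are not tied by the labels to a common culture or day, and same-numbered libraries did not deviate together. With a replicate block, 1 member passed in DuxKO_P7OE against P7OE and 0 at day 9, and 4 single members lost their call. No paired analysis was possible for the comparisons of P7OE and P7KO with WT, of DuxKO_P7OE with DuxKO, and for the Pramel7 by Dux difference, because those groups share no numbers.

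Leaving out each library gave 8 to 9 members in CtbpDKO against WT, 5 to 8 in DuxKO against WT of the genotype table, 1 to 2 in Dppa2KO against WT, 18 to 20 in Ctbp_DuxTKO against DuxKO, 9 to 10 in DKO_Dppa2 against Dppa2KO, 2 to 4 in Ctbp_DuxTKO against CtbpDKO and 3 to 9 in DKO_Dppa2 against CtbpDKO. The CtBP by Dux difference gave 6 to 9 and the CtBP by Dppa2 difference 1 to 2. In the Pramel7 table DuxKO gave 9 to 19, P7OE 7 to 20, P7KO 8 to 18, DuxKO_P7OE against DuxKO 5 to 7, DuxKO_P7OE against P7OE 0 to 0 and the Pramel7 by Dux difference 4 to 12. The time course gave 1 to 2 at day 3, 0 to 0 at day 9, 0 to 1 at day 12, and at day 18 0 to 1 against day 12 and 0 to 1 against day 0. The 8 members tested in no table had at most 8 counts in any library, and a lower level than these depths can show was not told apart from absence.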
